A study of Mus musculus with 10 samples.

Results

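Polycomb group and MLL-menin complexes are the chromatin machinery examined here, as the 41 genes of their subunits and of enzymes that act on the same histone marks, chosen by name from the 26146 genes in the count table. The members are 15 subunits of Polycomb repressive complex 1 (PRC1), 6 core and 4 accessory subunits of PRC2, 3 of the PR-DUB deubiquitinase, 4 MLL family methyltransferases (KMT2), menin and its partner LEDGF, the 4 subunits of the WRAD module, the H3K79 methyltransferase Dot1l and 2 H3K27 demethylases. After the filter on low counts 14165 genes were tested, among them 40 of the 41 members. Pcgf2 was not tested, at 2.13 ± 0.625 CPM (counts scaled to a common library size after TMM normalization, SD, n = 5) in Cited2CTL and 1.38 ± 0.676 CPM in Cited2CKO libraries.

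RNA was sequenced from hematopoietic stem cells (HSCs, sorted as LSKCD48-CD150+ cells) of 5 Cited2CTL and 5 Cited2CKO mice of the C57BL/6J strain, 8 to 12 weeks old, with a library for each mouse. All mice of both groups carried floxed Cited2 alleles (Cited2 fl/fl). Cited2CTL mice, labelled wildtype, had no Cre, and Cited2CKO mice, labelled Cited2 KO, carried Vav-iCre, a Cre driven by Vav regulatory elements that deletes in the whole hematopoietic system and not in HSCs alone. No group carried Vav-iCre without the floxed allele, so the recombinase and the deletion cannot be told apart. In sorted bulk RNA, fewer cells of a type and less RNA per cell cannot be told apart either. Libraries held between 3058690 and 4548795 counts in Cited2CTL and between 3500215 and 4315029 in Cited2CKO, which leaves genes with few counts, such as Ring1 and Cbx8, less precise than Ezh2 or Rbbp7.

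PRC1 and PRC2 keep developmental genes silent. PRC1, built on a RING and a PCGF subunit, places ubiquitin on histone H2A, and PRC2, through EZH1 or EZH2, methylates histone H3 at lysine 27 (H3K27). CBX subunits of canonical PRC1 bind that methyl mark, and PR-DUB takes the ubiquitin off again. MLL proteins work the other way: with the WRAD subunits they methylate H3K4 at active promoters and enhancers. Menin belongs with MLL1 and MLL2, which it tethers to chromatin. In HSCs, Bmi1 is known for its requirement in self-renewal and for holding the Cdkn2a locus silent, and MLL1 (Kmt2a) with menin for sustaining Hoxa genes and Meis1.

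The libraries were checked before the members were compared. Cited2 was expressed at 163 ± 42.7 CPM in Cited2CTL libraries and between 3.80 and 8.30 CPM in 4 of the Cited2CKO libraries. By contrast, the library labelled Cited2CKO replicate 3 had 120.1 CPM, within the Cited2CTL range of 101 to 222 CPM. With all 10 libraries included, Cited2 had a log2 fold change of -2.51 (SE 0.94, Benjamini-Hochberg adjusted p = 0.328, quasi-likelihood F test of edgeR), and -4.92 without that library. Xist lay between 1250 and 1316 CPM in 4 libraries and between 1.61 and 19.7 CPM in the other 6, and the library labelled Cited2CKO replicate 2 had both Xist at 1307 CPM and 329 CPM of Y-linked genes. All 10 HSC markers were detected in every library and summed to 1934 to 2229 CPM in Cited2CTL and 1731 to 1935 CPM in Cited2CKO. Summed markers of other cells were lower, at 493 to 591 against 501 to 549 CPM for multipotent progenitors (3 genes), 356 to 423 against 341 to 478 for megakaryocytes (4), 188 to 745 against 148 to 475 for granulocytes and monocytes (9), 24.7 to 52.4 against 24.9 to 78.9 for macrophages (5), 51.4 to 90.8 against 54.9 to 77.3 for B cells (6), 49.2 to 97.6 against 84.6 to 127 for T and NK cells (5), 35.1 to 62.6 against 35.4 to 51.4 for erythroid cells (6) and 9.85 to 26.8 against 11.6 to 25.8 for stroma and endothelium (4). Some markers, among them Cd79a, Ms4a1, Pax5, Cd3d, Cd3e, Cd3g, Trac, Hba-a1, Hba-a2, Ltf and Col1a1, had no count in at least 1 library, and no listed marker was at 0 in all of them. The sum for T and NK cells was mostly Nkg7, with group means of 69.7 CPM in Cited2CTL and 96.4 CPM in Cited2CKO. Cd3e, Cd3d, Cd3g and Trac each had group means of at most 1.13 CPM. Most of the B cell sum came from Cd79b, at 56.4 and 55.4 CPM. The multipotent progenitor sum combined opposite directions, with means of Flt3 at 123 against 96.0 CPM and of Cd48 at 21.6 against 49.0 CPM. Cd34, its remaining gene, was at 390 against 380 CPM. Because the lists differ in their number of genes, the sums do not show which cell type contributed most RNA. Cd48, the marker that the sort gated against, had 14.4 to 27.4 CPM in Cited2CTL and 38.5 to 60.8 CPM in Cited2CKO libraries, while Slamf1, which encodes CD150, had 87.3 to 127 and 111 to 132 CPM. The part of these values in the differences below was not tested.

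The promoters of 3 members are shown, because Men1 was the member whose genotypes did not overlap, Cbx6 had the smallest p-value among the PRC1 genes, and Suz12 had the largest positive log2 fold change of all members. The 250 bases before the start site come from RefSeq (GRCm38.p6) and are written 5′ to 3′ on the strand of the gene. For Men1 (chr19:6334729-6334978, + strand) the first of 3 listed start sites is used. Cbx6 lies at chr15:79834334-79834583 (- strand) and Suz12 at chr11:79992856-79993105 (+ strand). Capitals mark matches to the searched motifs.
Men1: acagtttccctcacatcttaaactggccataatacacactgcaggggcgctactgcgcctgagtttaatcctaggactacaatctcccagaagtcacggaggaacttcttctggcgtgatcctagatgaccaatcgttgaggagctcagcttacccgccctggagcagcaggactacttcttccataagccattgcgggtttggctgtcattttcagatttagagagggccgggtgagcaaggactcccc
Cbx6: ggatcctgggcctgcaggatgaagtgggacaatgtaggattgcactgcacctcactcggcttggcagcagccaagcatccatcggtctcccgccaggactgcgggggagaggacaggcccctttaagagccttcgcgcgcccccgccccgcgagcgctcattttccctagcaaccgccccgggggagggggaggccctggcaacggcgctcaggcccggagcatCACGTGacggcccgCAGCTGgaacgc
Suz12: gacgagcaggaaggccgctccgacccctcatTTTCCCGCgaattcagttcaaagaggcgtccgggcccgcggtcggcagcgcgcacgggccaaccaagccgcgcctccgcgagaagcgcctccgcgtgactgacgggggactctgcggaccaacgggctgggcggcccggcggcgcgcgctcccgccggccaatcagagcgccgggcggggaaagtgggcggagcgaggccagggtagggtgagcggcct

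The Cbx6 promoter held a MYC E-box (CACGTG) with its first base at -26 and an E2A E-box (CAGCTG) at -12 from the start site, and the Suz12 promoter an E2F motif (TTTCCCGC) at -219. None of the searched letters occurred in the Men1 window. Both strands were searched in windows from 250 bases before to 50 after each start site, for ZFX (AGGCCT), E2A (CAGCTG or CACCTG), STAT (TTCNNNGAA), E2F (TTTGGCGC, TTTCCCGC or TTCCCGCC, of which the last pair overlap), MYC (CACGTG) and ETS (GGAAGTG) motifs. RefSeq entries were found for 35 members, with 46 promoters, while Psip1, Kdm6b, Ash2l, Pcgf1, Kmt2b and Cbx2 were not matched. MYC E-boxes were in 10 of the 46 promoters (21.7%), compared with 7.15% of all 32851 promoters and 9.68% of the 13872 promoters of tested genes. These 10 belonged to Asxl2, Bap1, Bmi1, Cbx6, Cbx8, Kdm6a, Pcgf2, Phc2, Phc3 and Rbbp4. E2F motifs were in 5 promoters (10.9%, against 3.21% of all and 5.61% of those of tested genes), those of Asxl1, Ezh2, Pcgf5, Phf19 and Suz12. For the other motifs the members' share is given against all promoters and then those of tested genes. It was 30.4% against 32.9% and 30.3% for E2A, and 13.0% against 11.0% and 14.1% for ETS. For STAT it was 6.52% against 8.30% and 6.98%, and for ZFX 4.35% against 10.3% and 10.5%. Genes with the same motif lay on both sides of 0 in log2 fold change, for example Cbx6 (-0.42) and Bmi1 (0.21), or Phf19 (-0.56) and Suz12 (0.27).

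Levels of paralogs were read first, from the Cited2CTL libraries as RPKM (CPM per kilobase of the deposited gene length). The order of genes depends on these lengths, which fall short of the annotated exonic bases by unequal amounts. Pcgf5, for example, had a deposited length of 1509 bases and 12629 exonic bases, and Bmi1 3594 and 3974. Before division by length Pcgf5, Pcgf6 and Bmi1 had similar Cited2CTL means, at 108 ± 8.28, 101 ± 8.79 and 103 ± 25.4 CPM. Their order in RPKM therefore comes from the deposited lengths. Pcgf6 had 2098 deposited and 5027 exonic bases, so by exonic bases this order is reversed, with Bmi1 first and Pcgf5 last of these. Orders in the other families also depend on the lengths, and another length was not tested there. PCGF subunits decide the kind of PRC1. By the deposited lengths Pcgf5 had the highest level of them (71.8 ± 5.49 RPKM, SD, n = 5), followed by Pcgf6 (48.1 ± 4.19) and Bmi1, the PCGF4 gene (28.7 ± 7.07). Pcgf1 (16.2 ± 3.77) and Pcgf3 (15.01 ± 3.22) came next and Pcgf2, the closest paralog of Bmi1, last at 0.752 ± 0.220 RPKM. Bmi1 and Pcgf1 each overlapped the next gene in the order, and the other neighbours did not. Rnf2, the gene of the ubiquitin ligase RING1B, was at 66.1 ± 6.35 RPKM and its paralog Ring1 at 5.41 ± 0.960, a ratio per library of 12.6 ± 2.87. All neighbours among the CBX members overlapped, in the order Cbx7 (20.5 ± 1.98), Cbx6 (16.3 ± 2.70), Cbx8 (10.4 ± 3.86) and Cbx2 (6.60 ± 1.48 RPKM). The PHC genes, whose products link PRC1 complexes into larger assemblies, were led by Phc1 (12.3 ± 1.59 RPKM), above Phc3 (6.27 ± 1.58) and Phc2 (5.69 ± 1.00), which overlapped.

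Within PRC2 the histone chaperone gene Rbbp7 was highest at 161 ± 9.02 RPKM, without overlap with Eed (72.5 ± 6.03), Rbbp4 (66.5 ± 2.28) and the methyltransferase gene Ezh2 (61.5 ± 7.68), which overlapped each other in that order. Ezh1 (20.9 ± 3.99) and Suz12 (16.8 ± 3.14 RPKM) formed a lower, overlapping pair. Mtf2, which directs PRC2 to unmethylated CpG-rich DNA, had 59.6 ± 6.77 RPKM, above Jarid2 (15.1 ± 2.18), Phf1 (12.1 ± 2.14) and Phf19 (6.52 ± 2.28), of which each overlapped the next. Among the genes of the opposing enzymes Bap1, the PR-DUB protease, was at 44.3 ± 4.05 RPKM and its partners Asxl1 and Asxl2 at 14.0 ± 2.01 and 12.7 ± 1.69. Of the KMT2 genes, Kmt2c (14.4 ± 2.87) and Kmt2a (12.7 ± 2.32) overlapped, above Kmt2d at 7.95 ± 0.750 and Kmt2b at 2.32 ± 0.477 RPKM. Psip1, the gene of LEDGF, had 101 ± 10.2 RPKM and Men1 35.7 ± 1.17, and the WRAD genes Dpy30 (70.4 ± 5.55), Ash2l (63.6 ± 4.16) and Wdr5 (57.0 ± 6.68) overlapped in turn while Rbbp5 (30.3 ± 4.78) lay below them. Kdm6a was at 30.5 ± 10.8, Kdm6b at 5.62 ± 0.894 and Dot1l at 5.51 ± 0.858 RPKM.

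**Figure D1:**
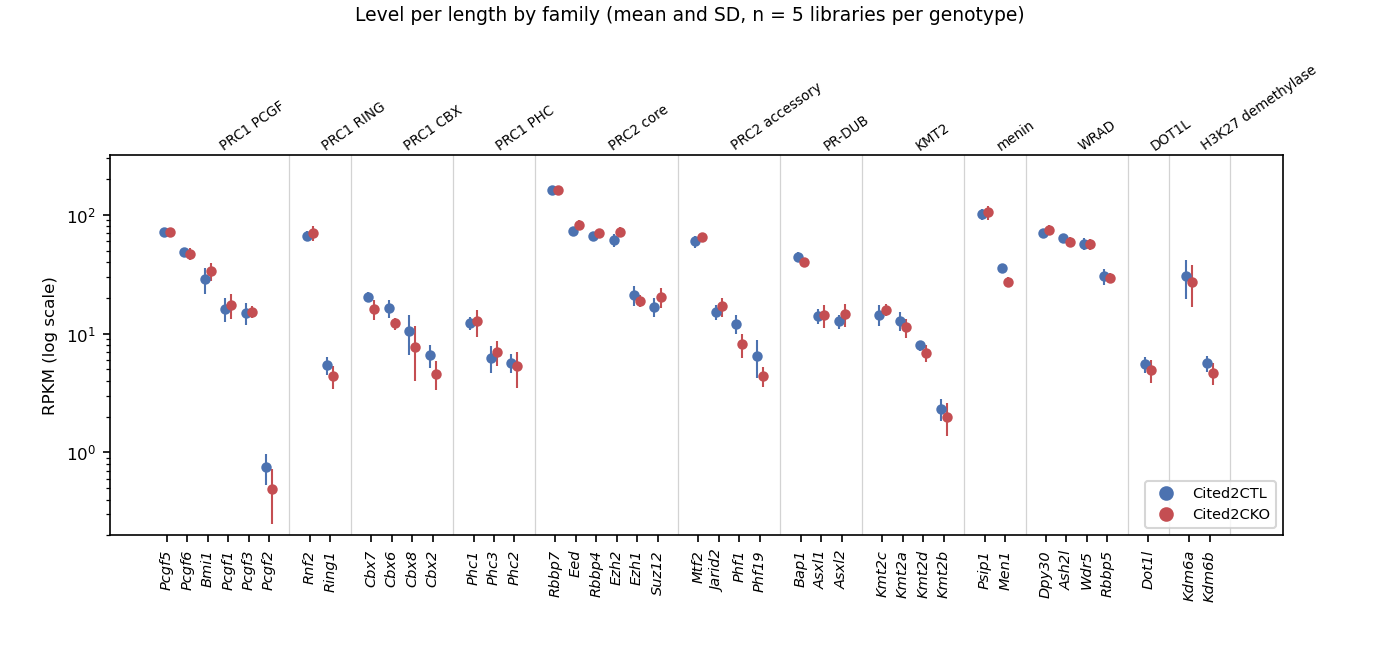
RPKM on a log scale of the 41 members by role, as mean and SD of 5 Cited2CTL (blue) and 5 Cited2CKO libraries (red). Rbbp7 and Psip1 stand highest and Pcgf2 lowest, at 0.752 RPKM in Cited2CTL, and the genotypes lie close together against the spread between genes.

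Levels of the members were then compared between Cited2CKO and Cited2CTL HSCs. No member passed a Benjamini-Hochberg adjusted p of 0.05 with a fold change above 20% in the quasi-likelihood F test of edgeR (edgeR QLF), a threshold that 0.12% of all tested genes passed as higher and 0.106% as lower. At an unadjusted p under 0.05, 1 member was higher (Ezh2) and 6 were lower (Men1, Cbx6, Phf1, Cbx7, Phf19 and Cbx2), beside 5.8% and 7.08% of all tested genes. The 5 libraries of each genotype did not overlap for 1 member, Men1, which was lower, against 1.98% of genes lower and 1.35% higher without overlap. By direction 21 of the 40 members had a log2 fold change below 0, as had 49% of all tested genes. The median was -0.02 (quartiles -0.21 and 0.10, range -0.58 to 0.27) for the members and 0.01 (quartiles -0.17 and 0.18) for all genes. DESeq2's Wald test called 1 member, Men1, as lower, where it called 1.41% of the genes it gave an adjusted p as lower and 1.18% as higher.

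Single libraries moved these small counts. Cited2CKO replicate 3 was the library with Cited2 within its Cited2CTL range. Without it, 0 members were higher and 5 lower at an unadjusted p under 0.05, beside 5.19% and 6.25% of all genes in that fit. In the same fit 1 member was lower and 0 higher without overlap, beside 2.67% and 2.27% of all genes. Without Cited2CKO replicate 2, the library with Xist and Y-linked reads, 0 members were higher and 3 lower, beside 4.39% and 5.98% of all genes. The count of 1 higher member also became 0 without Cited2CTL replicate 1 or 4 and 2 without Cited2CTL replicate 5 or Cited2CKO replicate 5. The count of 6 lower members became 4 without Cited2CTL replicate 1 or 2 and 3 without Cited2CTL replicate 3. Over the 10 fits that each left out 1 library, 4.39% to 6.24% of all genes were higher and 5.44% to 8.05% lower at that p. Men1, Cbx6 and Phf1 kept an unadjusted p under 0.05 and their direction without each of the 10 libraries in turn. The number of members without overlap was 2 lower without Cited2CTL replicate 2, 4 or 5 and 3 without Cited2CKO replicate 5, and 1 member was higher without overlap when Cited2CKO replicate 1 was left out. With 4 libraries in a group, more genes do not overlap, and over these 10 fits the share of all genes was 2.43% to 3.65% lower and 1.62% to 2.44% higher.

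**Figure D2:**
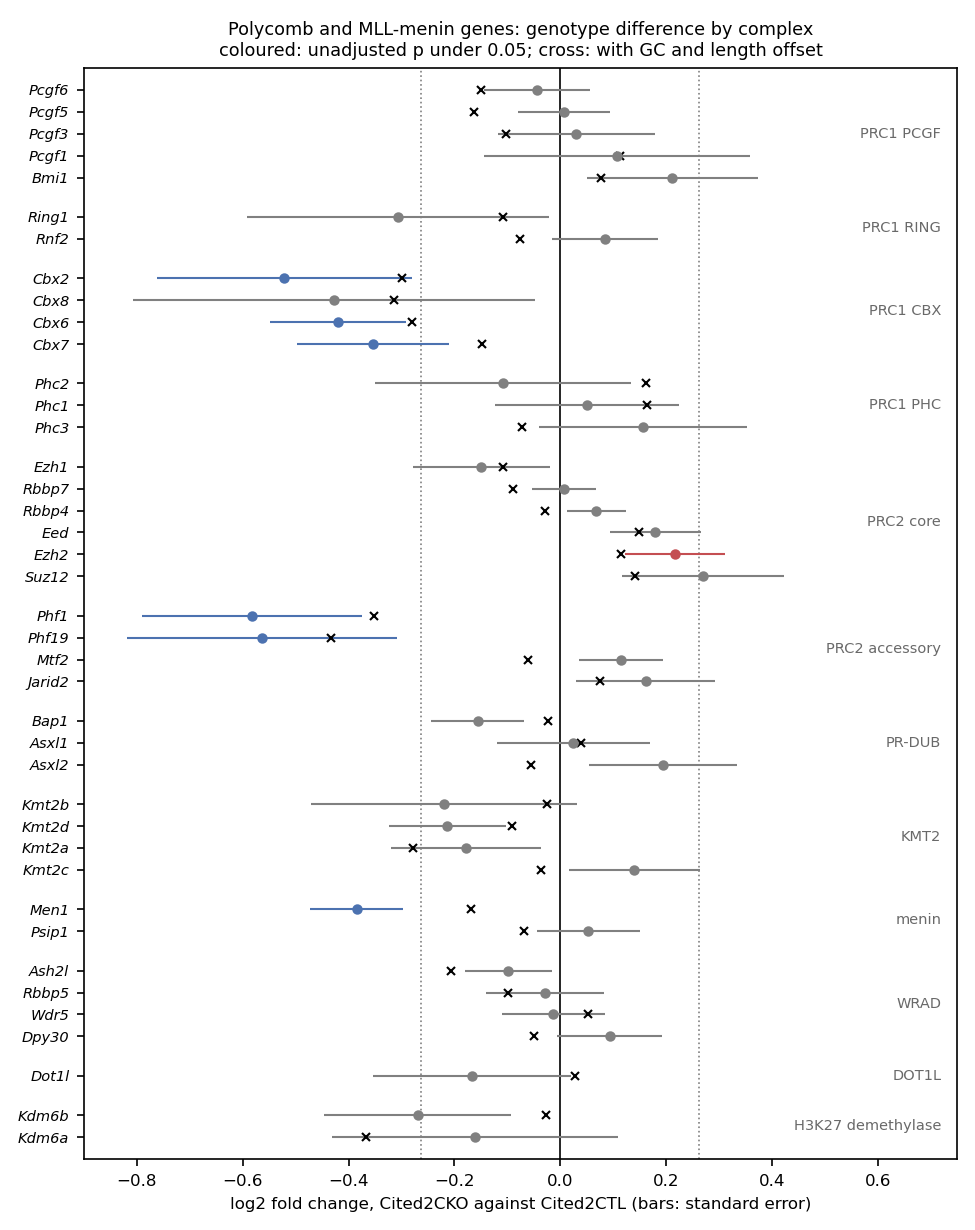
Log2 fold change (Cited2CKO over Cited2CTL, points with bars of 1 standard error) of the 40 tested members by role, coloured blue (lower) or red (higher) at an unadjusted p under 0.05, with crosses for the GC and length offset and dotted lines at a 20% fold change. The CBX genes all lie below 0 (-0.52 to -0.35 without the offset), 5 of the 6 PRC2 core genes lie above it, and the offset brings 26 of the 40 nearer to 0.

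Of the MLL-menin genes, Men1 differed most. It encodes menin, the scaffold that tethers MLL1 and MLL2 to chromatin, and lies on chromosome 19 of GRCm38 from 6334979 to 6340891. Men1 was expressed at 105, 113, 105, 110.4 and 109 CPM in Cited2CTL replicates 1 to 5 and at 71.3, 83.4, 81.1, 93.5 and 86.6 CPM in Cited2CKO replicates 1 to 5. Every Cited2CKO library was below every Cited2CTL library, including replicate 3, where Cited2 lay within its Cited2CTL range. The log2 fold change was -0.38 (SE 0.09, unadjusted p = 0.000657, adjusted p = 0.0921, edgeR QLF, Benjamini-Hochberg). DESeq2's Wald test with Benjamini-Hochberg adjustment gave an adjusted p of 0.00793, and over all alternatives the adjusted p ranged from 0.00793 to 0.816. With an offset for GC and length, described below, Men1 had -0.17 (adjusted p = 0.794, edgeR).

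The partner of menin in chromatin binding, LEDGF (Psip1), had a log2 fold change of 0.05 (SE 0.10), with 322 ± 32.4 CPM in Cited2CTL and 334 ± 46.6 CPM in Cited2CKO. Kmt2a, the gene of MLL1 itself, was at 213, 167, 210.2, 188 and 269 CPM in the Cited2CTL libraries and at 204, 198, 185, 126 and 211 CPM in the Cited2CKO libraries. The genotypes overlapped widely, with the highest value in Cited2CTL replicate 5 and the lowest in Cited2CKO replicate 4. Its log2 fold change was -0.18 (SE 0.14, adjusted p = 0.642, edgeR QLF, Benjamini-Hochberg). Among its paralogs, Kmt2d, an enhancer H3K4 methyltransferase, had -0.21 (158 ± 14.9 against 136 ± 22.5 CPM, unadjusted p = 0.0757 in edgeR), Kmt2b -0.22 (19.6 ± 4.04 against 16.8 ± 5.15 CPM) and Kmt2c 0.14 (243 ± 48.4 against 268 ± 29.2 CPM). The WRAD genes, shared by all these methyltransferases, lay within 0.10 of 0, with log2 fold changes of -0.10 for Ash2l (160.2 ± 10.5 against 149.7 ± 14.3 CPM), -0.03 for Rbbp5, -0.01 for Wdr5 and 0.09 for Dpy30.

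Of the PRC1 genes, the 4 CBX members all had lower means in Cited2CKO libraries (median log2 fold change -0.42), and 3 of them had an unadjusted p under 0.05, though none passed the adjusted threshold. Cbx6 lies on chromosome 15 from 79823896 to 79834688 and shares 5.31% of its exonic bases with Npcd on the same strand. It was at 96.0, 69.7, 96.1, 77.5 and 105 CPM in Cited2CTL replicates 1 to 5 and at 69.6, 66.8, 57.2, 61.4 and 76.7 CPM in Cited2CKO replicates 1 to 5. The genotypes overlapped only through Cited2CTL replicate 2 against Cited2CKO replicate 5. Its log2 fold change was -0.42 (SE 0.13, unadjusted p = 0.00556, adjusted p = 0.194, edgeR QLF, Benjamini-Hochberg).

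Cbx7, the CBX member with the highest level per length here and one known for a role in HSC self-renewal, was at 54.8, 66.4, 64.7, 56.1 and 54.7 CPM in Cited2CTL and at 51.8, 35.1, 40.4, 47.3 and 57.4 CPM in Cited2CKO libraries. Cited2CKO replicate 5 exceeded 3 of the Cited2CTL libraries, and the other 4 Cited2CKO libraries lay below all of them. Cbx7 had a log2 fold change of -0.35 (SE 0.14, unadjusted p = 0.0273, adjusted p = 0.329, edgeR QLF, Benjamini-Hochberg). Cbx2 was at 23.4, 27.5, 22.3, 17.8 and 32.4 CPM in Cited2CTL and at 20.2, 15.6, 21.0, 19.7 and 9.68 CPM in Cited2CKO libraries. Its overlap came from Cited2CTL replicate 4, and the lowest value was that of Cited2CKO replicate 5 (log2 fold change -0.52, SE 0.24, unadjusted p = 0.0487, adjusted p = 0.386, edgeR). Cbx8, at 14.5 ± 5.38 and 10.7 ± 5.24 CPM, had a log2 fold change of -0.43 with an SE of 0.38, close to the size of the difference itself.

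Bmi1, the PCGF subunit of canonical PRC1 in HSCs, was at 71.9, 112, 80.6, 125 and 126 CPM in Cited2CTL and at 108, 108, 136, 102 and 146 CPM in Cited2CKO libraries. Only Cited2CTL replicates 1 and 3 lay below all Cited2CKO libraries. Its log2 fold change was 0.21 (SE 0.16, adjusted p = 0.626, edgeR QLF, Benjamini-Hochberg), so the estimate for Bmi1 was opposite in sign to those for the CBX genes, which act in the same complex, and no test of the difference between genes was made. The other tested PCGF genes had log2 fold changes of 0.11 (Pcgf1), 0.03 (Pcgf3), 0.01 (Pcgf5) and -0.04 (Pcgf6), with SEs of 0.09 to 0.25. The catalytic subunit gene Rnf2 was at 200.2 ± 19.2 and 212 ± 31.0 CPM (log2 fold change 0.09, SE 0.10), and Ring1 at 11.0 ± 1.95 and 8.89 ± 1.92 CPM (-0.31, SE 0.29). The PHC genes had 0.05 (Phc1), -0.11 (Phc2) and 0.16 (Phc3).

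Of the PRC2 core genes 5 of 6 had higher means in Cited2CKO libraries, with a median log2 fold change of 0.12, and Ezh2 had an unadjusted p under 0.05. Ezh2 lies on chromosome 6 from 47530139 to 47595341. Its CPM was 132, 185, 163, 163 and 177 in Cited2CTL replicates 1 to 5 and 175, 187, 217, 199.9 and 176 in Cited2CKO replicates 1 to 5. The lowest Cited2CKO libraries fell inside the Cited2CTL range. The highest value belonged to Cited2CKO replicate 3, the library with Cited2 within its Cited2CTL range. Ezh2 had a log2 fold change of 0.22 (SE 0.10, unadjusted p = 0.0385, adjusted p = 0.362, edgeR QLF, Benjamini-Hochberg), and 0.17 without that library.

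Eed, whose product reads the H3K27 methyl mark and activates the enzyme, was at 136, 142, 167, 156 and 145 CPM in Cited2CTL and at 169, 161, 194, 174 and 148 CPM in Cited2CKO libraries. Cited2CTL replicates 1, 2 and 5 lay below all Cited2CKO libraries, and the other 2 lay among them. Its log2 fold change was 0.18 (SE 0.09, unadjusted p = 0.0557, adjusted p = 0.401, edgeR QLF, Benjamini-Hochberg). Suz12, the scaffold subunit, was at 70.2, 72.2, 78.2, 54.8 and 92.8 CPM in Cited2CTL and at 95.6, 92.0, 73.7, 70.8 and 112 CPM in Cited2CKO libraries (log2 fold change 0.27, SE 0.15, adjusted p = 0.489, edgeR). Both ranges overlapped over most of their length. Of the PRC2 core genes, those of the histone-binding subunits differed least, with Rbbp4 at 293 ± 10.1 and 307 ± 9.87 CPM (0.07, SE 0.06) and Rbbp7 at 366 ± 20.5 and 368 ± 15.8 CPM (0.01, SE 0.06). Gm26722 and Sync, on the opposite strand, cover 18.0% of the exonic bases of Rbbp4, and whether the counting used strand is not given in the sources used here.

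Ezh1, the methyltransferase paralog that is known for its role in slowly dividing cells, was the PRC2 core gene with a lower mean in Cited2CKO. Its CPM was 79.9, 91.2, 74.1, 116 and 78.3 in Cited2CTL and 93.2, 80.9, 70.9, 74.1 and 77.2 in Cited2CKO libraries. The genotypes overlapped almost completely, apart from the high value of Cited2CTL replicate 4 (log2 fold change -0.15, SE 0.13, adjusted p = 0.675, edgeR QLF, Benjamini-Hochberg). The ratio of Ezh1 to Ezh2, per length, was 0.386, 0.313, 0.290, 0.451 and 0.281 in Cited2CTL (0.344 ± 0.073, SD, n = 5) and 0.339, 0.275, 0.208, 0.236 and 0.278 in Cited2CKO libraries (0.267 ± 0.050). All Cited2CTL ratios were above those of 4 Cited2CKO libraries, and Cited2CKO replicate 1 lay within the Cited2CTL range. The summed CPM of 30 proliferation genes was 4083 in that same replicate, the lowest of the 10 libraries, 4758 to 5418 in the other Cited2CKO libraries and 4595 to 4788 in the Cited2CTL libraries, and the part of proliferation in the ratio was not tested.

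Among the PRC2 accessory genes, Phf1 and Phf19, Polycomb-like proteins that recruit PRC2 to chromatin, had lower means in Cited2CKO, and Mtf2 (0.11) and Jarid2 (0.16) had positive log2 fold changes. Phf1 was at 33.8, 30.6, 30.0, 32.4 and 20.6 CPM in Cited2CTL and at 22.3, 19.3, 12.3, 23.8 and 20.5 CPM in Cited2CKO libraries. Only Cited2CTL replicate 5 fell into the Cited2CKO range. The log2 fold change of -0.58 was the most negative of all members (SE 0.21, unadjusted p = 0.0141, adjusted p = 0.267, edgeR QLF, Benjamini-Hochberg). Cuta and AC144621.3 on the opposite strand cover 39.3% of the exonic bases of Phf1 (chromosome 17, 26933052 to 26937908), so its reads may not all be its own. Phf19 was at 35.1, 15.2, 28.5, 27.1 and 16.2 CPM in Cited2CTL and at 21.4, 16.6, 13.5, 13.8 and 16.8 CPM in Cited2CKO libraries, with 3 Cited2CTL libraries above and 2 within the Cited2CKO range (log2 fold change -0.56, SE 0.26, unadjusted p = 0.045, adjusted p = 0.379, edgeR).

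**Figure D3:**
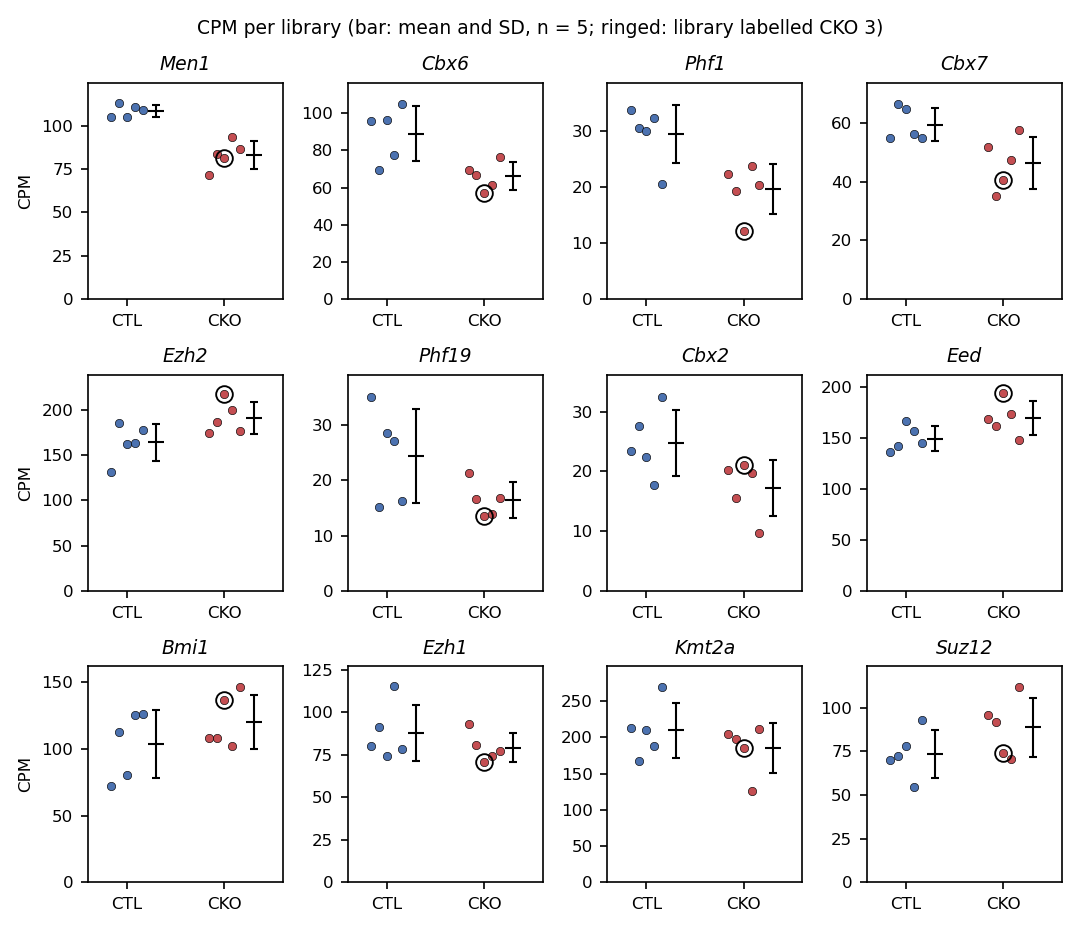
CPM per library of 12 members in Cited2CTL (blue) and Cited2CKO (red), with mean and SD (n = 5) and the library labelled Cited2CKO replicate 3 ringed, on axes that start at 0. The genotypes are apart for Men1 (105 to 113 against 71.3 to 93.5 CPM) and overlap for the other members.

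None of the genes of the enzymes that remove these marks, nor Dot1l, had an unadjusted p under 0.05. Bap1 had a log2 fold change of -0.16 (151 ± 13.8 against 135 ± 12.3 CPM, unadjusted p = 0.0992 in edgeR), Asxl1, whose mutation is frequent in clonal hematopoiesis and myeloid neoplasms, 0.03 (SE 0.14) and Asxl2 0.19 (SE 0.14). Dot1l, the H3K79 methyltransferase that MLL fusion proteins depend on, had -0.17 (31.4 ± 4.88 against 28.0 ± 6.22 CPM), and the demethylase gene Kdm6b -0.27 (37.4 ± 5.95 against 31.0 ± 6.59 CPM).

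Kdm6a, the X-linked H3K27 demethylase gene UTX, which escapes X inactivation, varied widely among libraries of either genotype. It was at 84.3, 213, 136, 220.3 and 149 CPM in Cited2CTL and at 121, 206, 198, 115 and 80.2 CPM in Cited2CKO libraries. The 4 highest values, 198 to 220 CPM, were in the 4 libraries with high Xist, 2 of each genotype, and the other 6 libraries had 80.2 to 149 CPM. The log2 fold change between the genotypes was -0.16 with an SE of 0.27, and -0.16 with an SE of 0.13 (adjusted p = 0.665, edgeR QLF, Benjamini-Hochberg) when log2 Xist was a covariate, which was chosen after seeing the data. Rbbp7, which is also on the X chromosome, did not separate by Xist, at 352 to 390 CPM in the libraries with high Xist and 350 to 401 CPM in the others.

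**Figure D4:**
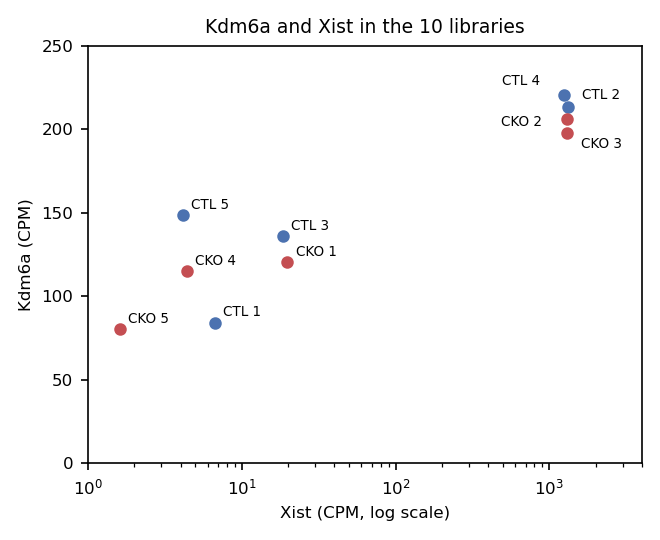
Kdm6a CPM against Xist CPM (log scale) in the 10 libraries, blue for Cited2CTL and red for Cited2CKO. The 4 libraries with high Xist (1250 to 1316 CPM) have Kdm6a at 198 to 220 CPM, above the 80.2 to 149 CPM of the other 6.

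The direction of the members followed their GC content, taken from the longest transcript of each gene. Across the 40 tested members the log2 fold change correlated with GC content at r = -0.73, and across 13895 tested genes with a known GC content at r = -0.37. Both are given as descriptions over genes measured in the same libraries. Of the 15 members in the tertile of genes highest in GC (52.0% to 71.3%) 14 were below 0, beside 75.97% of all genes there, and their median was -0.31 against -0.15 for all genes of that tertile. Of the 16 members in the lowest tertile (29.6% to 45.8%) 3 were below 0, beside 25.9% of all genes. The CBX genes, Men1, Phf1 and Phf19 had 53.9% to 58.6% GC, and Ezh2, Suz12, Eed and Bmi1 40.2% to 47.8%.

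An offset that removes each library's trend with GC content and gene length left 0 members at an unadjusted p under 0.05, where 3.22% of all genes were then higher and 3.69% lower. The correlation with GC across the members became -0.13. Men1 moved to a log2 fold change of -0.17, Cbx6 to -0.28, Cbx7 to -0.15, Cbx2 to -0.30, Phf1 to -0.35, Phf19 to -0.43, Ezh2 to 0.12, Eed to 0.15 and Suz12 to 0.14. All 9 kept their sign at a smaller size, whereas 14 members changed sign, each to a value at most 0.16 from 0. With the offset 29 of the 40 members were below 0, beside 51.5% of all genes in that fit. The median of the members was -0.07, and -0.01 over all genes. An offset of this kind also removes an effect of genotype that runs with GC content, and the measurements cannot tell these apart.

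**Figure D5:**
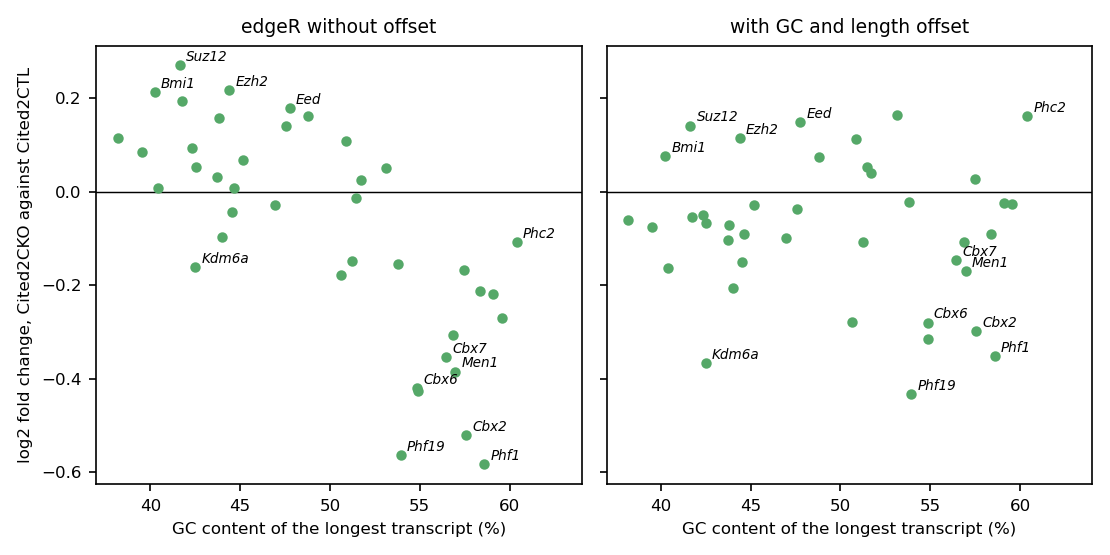
Log2 fold change (Cited2CKO over Cited2CTL) against GC content (%) of the longest transcript for the 40 tested members, 1 point per gene, without (left) and with (right) the GC and length offset. Members fall with GC content in the left panel (r = -0.73) and show little trend in the right one (r = -0.13), where 29 of the 40 lie below 0.

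Other genes of these pathways were counted from 5 further lists, none of whose members were called in either direction by edgeR QLF after Benjamini-Hochberg adjustment. At an unadjusted p under 0.05, 5.8% of all tested genes were higher and 7.08% lower, for comparison with the counts below. Of 23 tested PRC1 partners outside the members 13 were below 0 and 10 above (median -0.03), with 1 at an unadjusted p under 0.05. That was L3mbtl2, a subunit of the PCGF6 complex, at 64.8 ± 5.57 against 51.2 ± 4.66 CPM (log2 fold change -0.34, adjusted p = 0.231, edgeR), and Hdac2, a histone deacetylase gene, followed with 0.19 (adjusted p = 0.388, edgeR). Of 9 tested PRC2 and PR-DUB partners 6 were above 0 (median 0.07), none with an unadjusted p under 0.05. Lcor had 0.26 (33.6 ± 4.18 against 40.5 ± 6.60 CPM) and Asxl3 0.97 with an SE of 0.56 (8.39 ± 7.76 against 16.3 ± 6.82 CPM). Of 26 partners of COMPASS, menin and MLL fusions 15 were above 0 (median 0.02), and 2 of them had an unadjusted p under 0.05, Kdm1a (LSD1, an H3K4 demethylase), at 37.6 ± 9.23 against 52.4 ± 11.9 CPM (0.48, adjusted p = 0.333, edgeR), and Wdr82, a subunit of the SET1 complexes, at 104.7 ± 10.6 against 124.5 ± 18.5 CPM (0.25, adjusted p = 0.366, edgeR).

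Known targets of the 2 systems were examined beside the complexes, in the fit without the GC and length offset. The part of GC content in the counts of all these lists, the proliferation genes included, was not tested. Of 18 tested targets of MLL-menin 12 were below 0 and 6 above (median log2 fold change -0.13). At an unadjusted p under 0.05, 4 were lower and 0 higher, beside 7.08% and 5.8% of all tested genes. These were the cytokine receptor gene Flt3 (123 ± 18.5 against 96.0 ± 8.05 CPM, log2 fold change -0.36, adjusted p = 0.194, edgeR QLF, Benjamini-Hochberg), the homeobox genes Hoxa7 (-0.39, adjusted p = 0.313, edgeR) and Hoxa10 (-0.32), and Eya1 (-0.27). Meis1 had -0.03 (396 ± 20.1 against 387 ± 34.2 CPM) and Mecom 0.01. Of 16 loci listed as known targets of Polycomb repression in adult blood stem cells 6 had enough counts to be tested, 3 on either side of 0. The tested loci are thus those of the list that were not silent here. Among them were Gata3 (67.6 ± 14.5 against 68.9 ± 17.3 CPM) and Hmga2 (19.7 ± 5.87 against 18.8 ± 2.24 CPM). Igf2bp2 had the smallest p-value (30.6 ± 6.32 against 19.97 ± 4.61 CPM, -0.62, adjusted p = 0.234, edgeR), followed by Fgf3 (16.5 ± 5.19 against 11.0 ± 5.66 CPM, -0.58). Cdkn2a, the senescence locus held silent by Bmi1, was listed at 0 counts in all Cited2CTL libraries and at a mean of 0.138 CPM in Cited2CKO. The remaining 9 untested loci had group means of at most 3.14 CPM and were too low to be compared at these counted totals. Of the 30 proliferation genes 17 were above 0 (median 0.09) and 7 had an unadjusted p under 0.05, all of them higher, beside 5.8% of all tested genes, led by Ccnb1, the mitotic cyclin B1 gene (83.7 ± 6.83 against 114 ± 11.4 CPM, 0.45, adjusted p = 0.0781, edgeR), and Bub1, a spindle checkpoint kinase gene (92.0 ± 5.81 against 120.3 ± 19.5 CPM, 0.38, adjusted p = 0.178, edgeR).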

How the data were processed

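Single-ended polyA RNA-seq reads of 5 Cited2CTL and 5 Cited2CKO samples were aligned by the authors to GRCm38 (mm10 in the submitters' notes) with HISAT2 v2.1.0 and counted per gene with Rsubread v2.0.1. The authors deposited raw counts per gene symbol, not normalized, with gene lengths. The annotation, the use of strand and the handling of multimapping and duplicate reads are not given in the sources used here, and overlapping genes can share reads.

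Here counts were tested in R 4.3.3 with edgeR 4.0.16 (filterByExpr, TMM, robust quasi-likelihood F test, Benjamini-Hochberg adjustment, adjusted p under 0.05, fold change above 20%). The common biological coefficient of variation was 25.3%, and replicates correlated at r = 0.926 to 0.956 (Cited2CTL) and 0.894 to 0.964 (Cited2CKO) in log2 CPM. CPM used TMM-scaled totals, and depths are given in the report. Positions, overlaps and GC content came from the GENCODE annotation of GRCm38.

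Members and gene lists were chosen by hand with earlier results of these data known. Values in every library are given for the 8 members with the smallest p-values and for Men1, Bmi1, Ezh1, Ezh2 and Kmt2a, and the 2 smallest p-values are named in each further list. Values per library of Suz12 and Kdm6a were added after they were seen, as were further named list genes. Some genes that count in the list totals are not reported here. The same-numbered libraries of both groups showed correlations of their deviations of 0.010, -0.095, 0.208, 0.003 and 0.193 and were not treated as pairs.

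Alternatives were DESeq2 1.42.0 (Wald test), limma-voom (limma 3.58.1), size factors of DESeq2 within edgeR, all genes unfiltered, a minimum of 10 counts in each sample, the replicate block, a GC and length offset (loess, span 50%) with and without the block, each library left out, an adjusted p of 0.1, no fold threshold, TPM in place of RPKM, and, chosen after seeing the data, log2 Xist CPM as a covariate. Tested on simulated data with 200 genes changed 2-fold between Cited2CKO and Cited2CTL, edgeR recovered 166 (83%) with 8 false calls among 13627 genes. The members' log2 fold changes, -0.58 to 0.27, were all smaller than 2-fold, and recovery of changes of that size was not tested.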

Additional observations from a re-analysis of the deposited data

Results flagged for a closer look

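In a Dixon test of the highest and lowest library of each group of 5, 3 of 82 groups had a library far from the others, where chance gives about 1 in 20. Cited2 was at 120.1 CPM in the library labelled Cited2CKO replicate 3 and at 3.80 to 8.30 CPM in the other Cited2CKO libraries. Phc3 was at 45.6 CPM in Cited2CKO replicate 4 and at 77.9 to 89.1 CPM in the others of that group. Phf1 was at 20.6 CPM in Cited2CTL replicate 5 and at 30.0 to 33.8 CPM in the others.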

How the results depend on the processing

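No alternative other than DESeq2 and the adjusted p threshold of 0.1 called a member, and those both called 1 (Men1, lower). In the fit as reported 17 genes of all were called higher and 15 lower. DESeq2 called 148 and 177 and had 2 members higher at an unadjusted p under 0.05, beside 966 of 14165 genes. The threshold of 0.1 called 53 and 74. The replicate block called 15 and 9 and had 3 members higher and 4 lower at that unadjusted p, beside 799 and 918 of 14165 genes. Of the 5 Cited2CTL libraries, 1 correlated best with its own number. The GC and length offset called 5 and 3 with 0 members higher and 0 lower. Together with the replicate block it called 10 and 3. In that fit 0 members were higher and 2 lower (Cbx6 and Kmt2a) at that unadjusted p, beside 465 and 555 of 13895 genes. The median log2 fold change of the members was -0.072 there. Leaving out each library gave 5 to 27 genes called higher (27 without Cited2CKO replicate 3) and 3 to 18 lower, 0 to 2 members higher and 3 to 6 lower at an unadjusted p under 0.05, and 0 to 1 higher and 1 to 3 lower without overlap. The causes of these changes were not tested. The log2 fold change of Cited2 was -3.99 (adjusted p = 0.0341) in limma-voom and -4.92 to -2.23 with each library left out.

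Signs changed for uncalled members near 0. With the offset, and in parentheses with the offset and the replicate block, log2 fold changes were -0.10 (-0.077) for Pcgf3, -0.16 (-0.16) for Pcgf5, -0.076 (-0.085) for Rnf2, 0.16 (0.12) for Phc2, -0.071 (-0.066) for Phc3, -0.029 (-0.041) for Rbbp4, -0.090 (-0.091) for Rbbp7, -0.060 (-0.062) for Mtf2, -0.055 (-0.036) for Asxl2, -0.036 (-0.043) for Kmt2c, -0.068 (-0.082) for Psip1, 0.053 (0.060) for Wdr5, -0.049 (-0.058) for Dpy30 and 0.028 (0.015) for Dot1l. Without the filter Pcgf5 and Rbbp7 had -0.011 and -0.0095, in limma-voom Asxl1 had -0.014, and with at least 10 counts Wdr5 had 0.0017. With each library left out, the ranges that crossed 0 were -0.11 to 0.11 for Asxl1, -0.017 to 0.23 for Pcgf1, -0.042 to 0.14 for Pcgf3, -0.029 to 0.041 for Pcgf5, -0.10 to 0.00062 for Pcgf6, -0.065 to 0.15 for Phc1, -0.28 to 0.057 for Phc2, -0.021 to 0.097 for Psip1, -0.080 to 0.056 for Rbbp5, -0.015 to 0.035 for Rbbp7 and -0.062 to 0.036 for Wdr5. The other 21 tested members kept their direction in each of these fits. TPM left the order of levels as it was, but it uses the same gene lengths as RPKM. That order was therefore nearly fixed in advance, and TPM is no test of the lengths. The counted totals limit the members with few counts, Ring1, Pcgf1, Cbx8 and Kmt2b, whose SEs were 0.25 to 0.38.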
